A study of Arabidopsis thaliana with 29 samples.

Results

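The 135 probe sets described here are those whose log2 signal was lowered by ACC, the precursor of ethylene, in seedlings of both parvalbumin genotypes of *A. thaliana*. They were selected on the deposited values: the mean of the 3 ACC arrays minus the mean of the 3 control arrays was at most -0.8 in *PV-NES* and in *PV-NLS* alike. Of 22746 probe sets, 233 met this limit in *PV-NES*, 343 in *PV-NLS* and 135 in both. The array's annotation gives 73 of the 135 members a single gene, 3 several genes and 59 none, so the last 62 are counted but named only by their probe set.

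The study hybridised RNA of whole seedlings to ATH1 arrays, 29 in all. Each transgenic genotype contributed 3 independent lines per treatment: *PV-NES* lines 1, 7 and 11, in which a parvalbumin with a nuclear export signal stays in the cytosol, and *PV-NLS* lines 4, 5 and 8, in which a nuclear localisation signal places it in the nucleus. The promoter that drives the transgenes is not given in the sources used here. WT was Col-0, with 1 array for each hormone and 2 control arrays. Seedlings of all groups were stratified for 3 days, grown for 3 days at 22 °C under 16 h of light and 8 h of dark, and then kept for 5 days with 1 µM ACC, 10 µM ABA, 50 µM MeJA or no hormone.

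ACC is oxidised by the plant to ethylene, a gas bound by receptors in the endoplasmic reticulum. Binding releases EIN2 from inhibition by the kinase CTR1, and EIN2 stabilises the transcription factors EIN3 and EIL1, which alter growth, defence and pigment formation in seedlings. ABA is the hormone of seed maturation and water deficit, and methyl jasmonate (MeJA) of wounding, herbivory and anthocyanin formation. Parvalbumin is an animal Ca2+-binding protein that buffers Ca2+ where it is placed.

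Replicate arrays within a group correlated with r of 0.982 to 0.997 over all probe sets, and arrays of different groups with 0.945 to 0.997. The 2 WT controls correlated with 0.984, and the lone WT ACC array with 0.963 to WT control 1 and 0.980 to WT control 2. Markers could be looked for only where the annotation gives a probe set a single gene, and 8730 of 22746 probe sets have no gene there. Whether the array measures the other listed markers is thus not known here. Of the marker lists, 2 of 11 shoot genes were found, the Rubisco activase gene *RCA* at a mean of 12.3 and *FMA* at 4.57. The root hair expansin genes *EXPA7* and *EXPA18*, 2 of 10 root markers, averaged 5.36 and 6.06, and of 7 seed genes *ICL* and *PAP85* averaged 5.24 and 2.85. None of these genes was a member. In RNA of whole seedlings, fewer cells of a type and less RNA per cell cannot be told apart.

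The members' median level on each array separated ACC from the other treatments. In *PV-NES* it was 5.24, 5.43 and 5.44 on the ACC arrays, 6.42, 6.61 and 6.56 after ABA, 5.84, 5.80 and 5.80 after MeJA and 6.55, 6.42 and 6.55 on the controls. In *PV-NLS* it was 5.25, 5.19 and 5.36 after ACC, 5.96, 6.17 and 6.38 after ABA, 6.16, 6.08 and 5.82 after MeJA, and 6.48, 6.40 and 6.52 on the controls. In WT it was 5.50 after ACC, 6.16 after ABA, 5.87 after MeJA and 6.08 and 6.52 on the 2 controls. The ACC arrays were thus the lowest of each genotype, in the transgenics by the choice of the members, and WT control 1 lay below WT ABA.

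**Figure D1:**
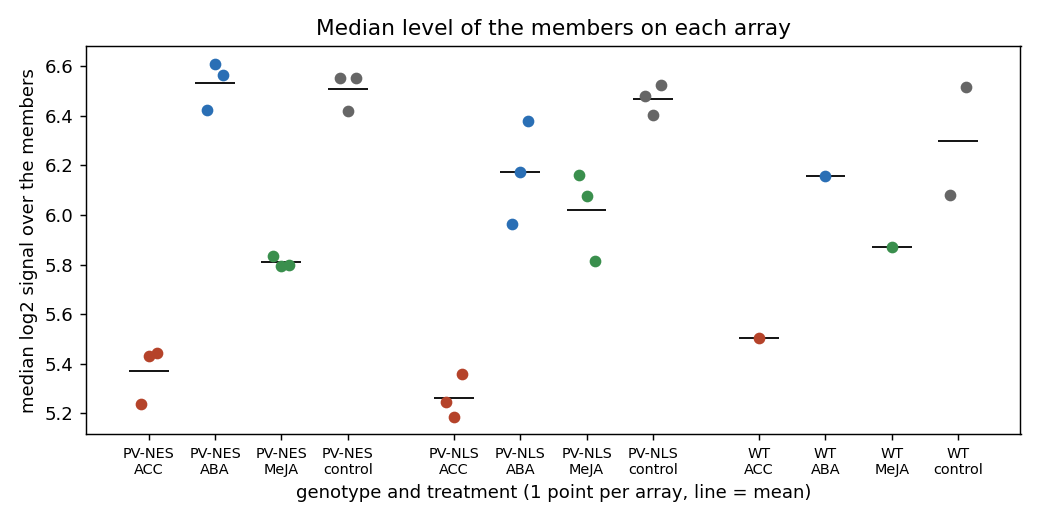
Median log2 signal over the 135 members (y axis) on each of 29 arrays, by genotype and treatment (x axis); lines are group means. WT ACC, at 5.50, lies below WT control 1 at 6.08 and WT control 2 at 6.52.

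The ACC and control arrays of the transgenic lines chose the members, so their ACC differences are described without a test. The median difference was -1.02 in *PV-NES* and -1.13 in *PV-NLS*, with the lowest at -3.49 and -2.93. Every ACC array lay below every control array for 131 members in *PV-NES*, where 12.3% of all probe sets did so, and for 127 in *PV-NLS*, where 16.1% did. Of the members, 64 averaged below 5.253, the lowest median of any array over all probe sets, on the *PV-NES* ACC arrays and 66 on the *PV-NLS* ACC arrays, against 24 on the controls of each genotype. At the limit of the rule, the members just inside were AT5G14650 (-0.803 in *PV-NES*, -0.868 in *PV-NLS*), AT3G04640 (-0.806 and -0.897) and AT1G70810 (-0.809 and -1.15). Just outside were AT5G50130 (-0.798 and -0.881), the expansin gene *EXPA4* (-0.795 and -0.860) and AT4G38550 (-0.866 and -0.790).

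The lowest differences belonged to 267457_at, a probe set with no gene named here. It read 4.00, 4.87 and 4.88 after ACC and 8.13, 8.00 and 8.09 on the controls of *PV-NES*, and 4.81, 4.21 and 4.78 after ACC and 7.32, 7.65 and 7.61 on the controls of *PV-NLS*. WT read 4.81 after ACC, against 6.18 and 7.46 on the controls. All 7 ACC arrays were thus at or below 4.88, and no control was below 6.18.

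Whether the same probe sets were lower after ACC in WT could be tested, since no WT array entered the rule. The WT difference was below 0 for 118 of 135 members with a median of -0.70, whereas 46.1% of all probe sets were below 0 with a median of 0.03. By limma, with a fold above 2 and a Benjamini-Hochberg adjusted p under 0.05 over all 22746 probe sets, 38 members (28.1%) fell, against 3.39% of all probe sets. None rose, where 1.99% of all did; at a raw p under 0.05 and the same fold, 45 members were lower (3.5% of all) and 1 was higher (2.4% of all). This test rests on 1 WT ACC array, which is assumed to vary like the replicated groups, and in a fit of the WT ACC and control arrays alone 0 members passed it. Taken against WT control 1 alone the median was -0.51, and against WT control 2 alone -0.99. The WT control mean lay below the *PV-NES* control mean for 99 members and below that of *PV-NLS* for 103. The medians of these differences were -0.24 and -0.20, against 0.02 for each over all probe sets. Only the transgenic controls entered the rule, so the sizes of the ACC falls are not compared between WT and the transgenics.

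**Figure D2:**
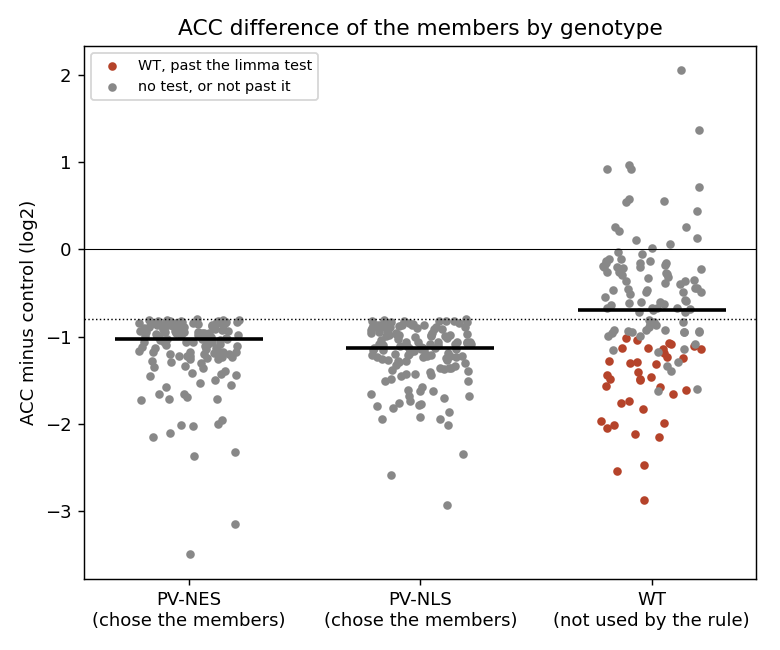
ACC minus control (log2, y axis) of each of the 135 members in PV-NES, PV-NLS and WT (x axis); bars are medians, the dotted line is the limit of -0.8, and red points are the 38 WT differences past the limma test. All points of the transgenics lie under the limit by choice, and WT points run from -2.87 to 2.05.

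The largest fall in WT was that of AT1G67870, whose product has no annotation in the sources used here. It read 6.34 on the WT ACC array, against 9.62 and 8.78 on the controls, which is lower by 2.87 (SE 0.36, limma adjusted p = 6.37e-05). In the transgenics its ACC differences were -0.87 and -1.04. ABA and MeJA also lowered it in WT, to 7.26 and 7.59 (-1.95, adjusted p = 0.000937, and -1.61, adjusted p = 0.00425). The MeJA call was lost without WT control 1 (-1.19, adjusted p = 0.0686).

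The mitochondrial gene *nad2*, for a subunit of NADH dehydrogenase, and AT1G64560, a transcribed pseudogene, also fell after ACC in WT. Both signals were low, and detection calls were not used. No array exceeded 5.01 for *nad2*, under 5.253, the lowest median of any array over all probe sets. AT1G64560 read 3.53 on the WT ACC array, against 6.08 and 5.06 on the controls. *nad2* read 2.79, 2.73 and 3.12 after ACC and 3.91, 3.52 and 3.76 on the controls of *PV-NES*, 2.87, 2.92 and 2.82 after ACC and 4.91, 4.49 and 4.05 on the controls of *PV-NLS*, and 2.92 after ACC and 5.01 and 4.79 on the controls of WT. Its fall in WT was 1.98 (SE 0.43, adjusted p = 0.00379), and the WT ACC array lay below both WT controls. AT1G64560 fell by 2.04 (adjusted p = 0.00422), a call lost without WT control 1 (-1.53, adjusted p = 0.0667). After ABA in WT the differences were -2.06 (adjusted p = 0.0029) for *nad2* and -2.31 (adjusted p = 0.00153) for AT1G64560.

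Other genes that fell after ACC in WT were *APS3*, for an ATP sulphurylase of sulphate assimilation (-1.74, adjusted p = 0.000288), AT2G48130 (-1.76, adjusted p = 0.00241) and *GH9B8*, a glycosyl hydrolase of family 9 (-1.14, adjusted p = 0.027). *GH9B8* was named here after its values were seen, and its call was lost without WT control 2 (-0.72, adjusted p = 0.171). *APS3* read 6.72 on the WT ACC array, against 8.48 and 8.45 on the controls, and 7.02 to 7.60 on the transgenic ACC arrays, against 8.13 to 8.80 on their controls.

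A set of members went the other way in WT without passing the test. AT1G15010 read 7.69 on the WT ACC array, against 6.11 and 5.17 on the controls (2.05, SE 0.82, adjusted p = 0.0993). In *PV-NES* it read 5.21, 5.06 and 5.13 after ACC, against 7.31, 5.60 and 6.31, and in *PV-NLS* 5.05, 5.11 and 4.04 after ACC, against 7.34, 5.93 and 6.15. AT5G14650 was at 1.36 (adjusted p = 0.208), AT3G04640 at 0.96 (adjusted p = 0.301) and AT5G19240, annotated as a GPI-anchored glycoprotein precursor, at 0.54 (adjusted p = 0.381). In all, 17 members had a WT difference above 0.

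ABA and MeJA moved the members in both directions. In WT, ABA raised 21 members (2.33% of all probe sets were called higher) and lowered 36 (2.08% of all). MeJA raised 23 in WT (2.88% of all) and lowered 26 (2.16% of all). Each of these groups is 1 array, and with the compared arrays alone in the fit the counts were 1 and 6 after ABA and 8 and 1 after MeJA. The medians were -0.30 after ABA and -0.63 after MeJA, against -0.01 and 0.04 over all probe sets. The ACC, ABA and MeJA differences of WT share the same 2 control arrays, and so their values are given side by side. Against WT control 1 alone the medians were -0.25 after ABA and -0.24 after MeJA, and against WT control 2 alone -0.46 and -0.86.

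In the transgenic lines the controls also served the rule, so the ABA and MeJA differences there are counted without a test. In *PV-NES*, 29 members were at 0.8 or more after ABA (2.92% of all) and 43 at -0.8 or less (1.88%), and after MeJA 24 (3.5%) and 66 (4.18%). In *PV-NLS*, 21 members were at 0.8 or more after ABA (2.84%) and 52 at -0.8 or less (3.55%), and after MeJA 25 (4.06%) and 60 (4.98%). The medians after ABA and MeJA were -0.12 and -0.78 in *PV-NES*. In *PV-NLS* they were -0.46 and -0.72.

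MeJA and ABA could be compared within each genotype on arrays that the rule did not use. After MeJA, relative to ABA, 27 members were higher in *PV-NES* (2.47% of all probe sets) and 47 lower (2.61%). In *PV-NLS*, 30 were higher (3.91% of all) and 29 lower (4.29%), and in WT 25 were higher (3.3%) and 24 lower (2.76%). The same 21 members were higher in all 3 genotypes (1.95% of all probe sets) and another 21 lower in all 3 (1.14%). The median of MeJA minus ABA was -0.46 in *PV-NES*, -0.03 in *PV-NLS* and -0.02 in WT, against 0.01, 0.02 and 0.04 over all probe sets.

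**Figure D3:**
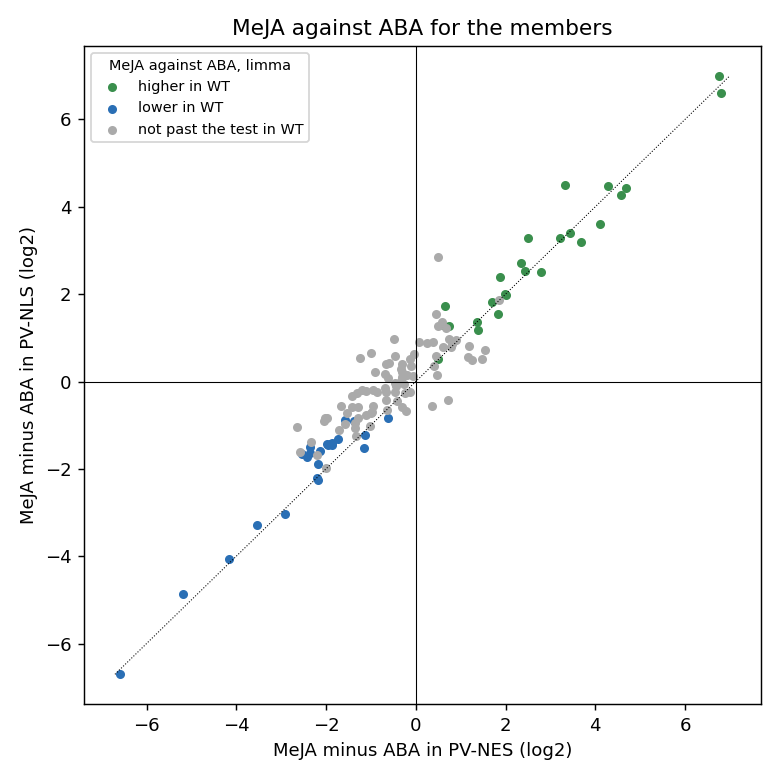
MeJA minus ABA (log2) of the 135 members in PV-NES (x axis) against PV-NLS (y axis), coloured by the limma call in WT; the dotted line marks equal differences. The ends of the plot, near 6.80 and -6.59 in PV-NES, carry WT calls of the same direction.

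Between genotypes, MeJA minus ABA was lower in *PV-NES* than in *PV-NLS* for 103 of 135 members (76.3%), with a median of the difference of -0.39. Of all probe sets 49.8% were lower, with a median of 0.00. The members share the same arrays, so their count does not measure the spread between lines. By line, the members' median of MeJA minus ABA ran from -0.54 to -0.28 in *PV-NES*. In *PV-NLS* it ran from -0.49 to 0.18, so the lines of the genotypes overlapped. No member passed the limma test of the difference between these genotypes (0.268% of all probe sets did in the higher direction and 0.198% in the lower), and the smallest adjusted p was 0.0644. At an unadjusted p under 0.05 with a fold above 2, 1 member was higher (0.484% of all probe sets) and 17 were lower (0.87% of all). The widest difference was at 246099_at (-2.37, SE 0.76, adjusted p = 0.0829), for which no gene is named here. In *SP1L2* it was -0.87 (SE 0.27, adjusted p = 0.0772). Against WT no probe set passed the test with either transgenic genotype (0% of all), and at an unadjusted p under 0.05 with that fold 1 member was higher (0.382% of all) and 8 were lower (0.822%) in *PV-NES*. In *PV-NLS*, 1 was higher (0.185% of all) and 0 were lower (0.207%).

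The named members are grouped below by known role. The groups were formed after the values were seen and carry no test of their own. Of anthocyanin formation there were 2 annotated members, *DFR* and *UF3GT*, and both fell after ACC and rose after MeJA in WT. *DFR*, for the dihydroflavonol reductase that makes leucoanthocyanidins, read 4.83, 6.38 and 6.26 on the *PV-NES* ACC arrays, 8.10, 8.48 and 8.25 after ABA, 9.58, 10.20 and 9.49 after MeJA and 8.10, 8.14 and 7.66 on the controls. In *PV-NLS* it read 5.25, 5.41 and 6.33 after ACC, 9.17, 8.97 and 8.82 after ABA, 9.46, 9.19 and 9.84 after MeJA and 7.87, 8.25 and 7.89 on the controls. In WT it read 5.72 after ACC, 9.20 after ABA, 9.56 after MeJA and 8.40 and 7.26 on the controls. MeJA arrays were above, and ACC arrays below, every control in each genotype.

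*DFR* fell by 2.11 after ACC in WT (SE 0.50, limma adjusted p = 0.00695), which is 4.32-fold, and rose by 1.73 after MeJA (adjusted p = 0.026). The ABA difference was 1.38 (adjusted p = 0.081). The ACC call was lost without WT control 1 (-1.54, adjusted p = 0.100) and the MeJA call without WT control 2 (1.16, adjusted p = 0.157). MeJA was above ABA by 1.48 in *PV-NES* (adjusted p = 0.0024), by 0.51 in *PV-NLS* (adjusted p = 0.248) and by 0.35 in WT (adjusted p = 0.773).

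*UF3GT*, for a glycosyltransferase that adds a sugar to anthocyanins, read as follows. In *PV-NES* it read 5.17, 5.96 and 5.48 after ACC, 7.46, 7.58 and 7.83 after ABA, 8.58, 9.36 and 8.49 after MeJA and 6.86, 6.85 and 6.15 on the controls. In *PV-NLS* it read 5.28, 5.52 and 5.86 after ACC, 8.25, 8.22 and 7.83 after ABA, 8.70, 9.11 and 8.93 after MeJA and 6.17, 6.63 and 6.35 on the controls. In WT it read 5.08 after ACC, 8.30 after ABA, 8.55 after MeJA and 7.01 and 5.76 on the controls, so no ACC array reached a control of its genotype and no ABA or MeJA array fell to one.

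In WT *UF3GT* fell by 1.31 after ACC (adjusted p = 0.0356) and rose by 1.92 after ABA (adjusted p = 0.00348) and, after MeJA, by 2.17 (adjusted p = 0.000962). The ACC call was lost without WT control 1 (-0.69, adjusted p = 0.367) and without *PV-NLS* line 4 or line 5 (adjusted p = 0.053 and 0.052). AT4G14090, which has no annotation in the sources used here, showed WT differences of -1.49 after ACC (adjusted p = 0.016), 1.63 after ABA (adjusted p = 0.0103) and 1.83 after MeJA (adjusted p = 0.00407). Its ACC call was lost without WT control 1 (-1.07, adjusted p = 0.171) and its ABA call without WT control 2 (1.2, adjusted p = 0.0853).

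**Figure D4:**
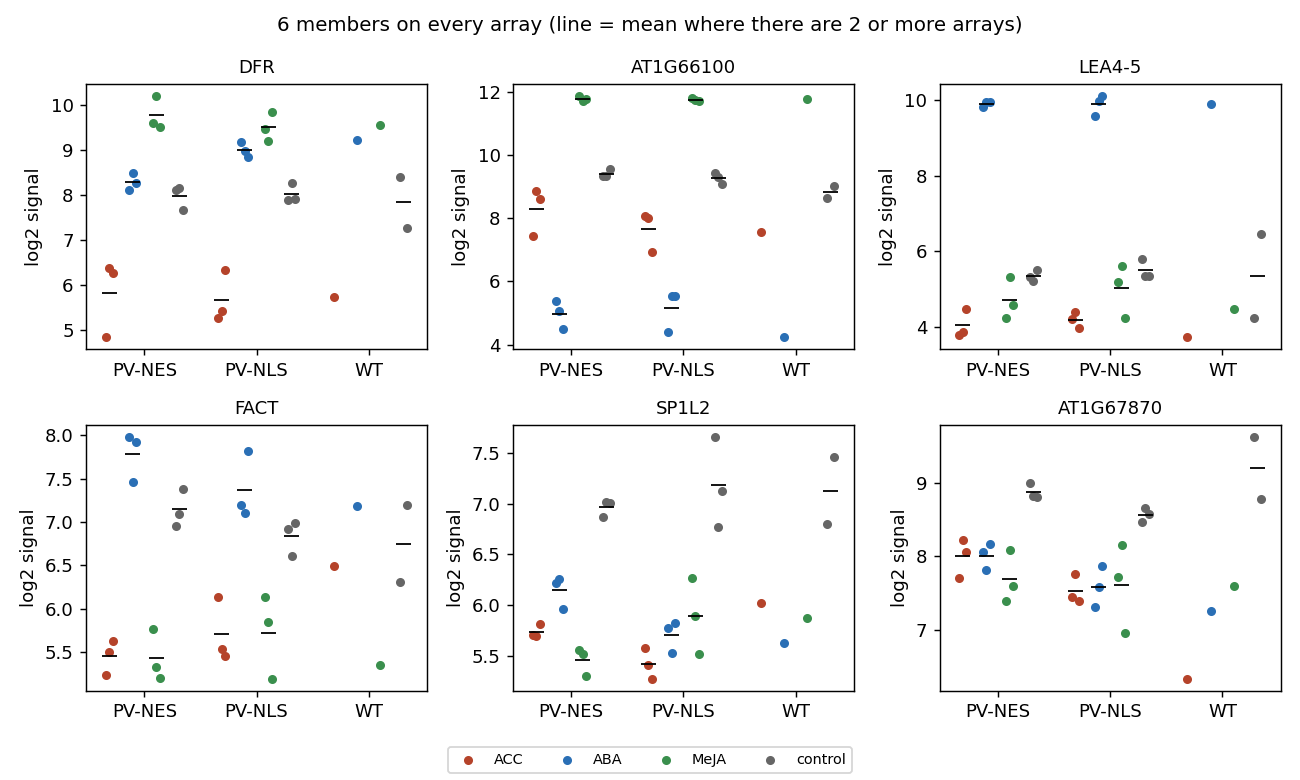
Log2 signal (y axis) of 6 members on every array, by genotype (x axis) and treatment (colour, in the order ACC, ABA, MeJA and control); lines are means of 2 or 3 arrays. DFR is highest after MeJA, LEA4-5 after ABA, and AT1G66100 spans from 4.23 on the WT ABA array to 11.87 on the MeJA array of PV-NES line 1.

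Other members were higher after MeJA than after ABA. AT1G66100, a gene of the small antimicrobial thionin peptides, read 7.45, 8.85 and 8.61 after ACC, 5.37, 5.05 and 4.50 after ABA, 11.87, 11.69 and 11.77 after MeJA and 9.32, 9.32 and 9.56 on the controls of *PV-NES*. In *PV-NLS* it read 8.06, 7.99 and 6.93 after ACC, 4.39, 5.52 and 5.53 after ABA, 11.80, 11.72 and 11.71 after MeJA and 9.44, 9.31 and 9.09 on the controls. In WT it read 7.55 after ACC, 4.23 after ABA, 11.77 after MeJA and 8.65 and 9.02 on the controls. The treatments did not overlap in any genotype, and the order was MeJA, control, ACC and ABA from high to low.

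In WT AT1G66100 fell by 4.60 after ABA (SE 0.48, adjusted p = 6.76e-07), or 24.2-fold, and rose by 2.94 after MeJA (adjusted p = 0.000201), or 7.68-fold, while the ACC difference was -1.28 (adjusted p = 0.0787). MeJA was above ABA by 6.80 in *PV-NES* (adjusted p = 9.58e-14), 6.60 in *PV-NLS* (adjusted p = 1.5e-13) and 7.54 in WT (adjusted p = 2.22e-09). The other thionin gene among the members, *THI2.2*, did not share this order. It read 6.07, 5.62 and 6.62 after MeJA and 7.33, 7.31 and 6.77 after ABA in *PV-NES*, and was lower after MeJA than after ABA by 1.03 in each of *PV-NES* (adjusted p = 0.0254) and *PV-NLS* (adjusted p = 0.0132), with -1.14 in WT (adjusted p = 0.207). These calls were lost without *PV-NES* line 1 (-0.92, adjusted p = 0.149) or line 7 (-0.70, adjusted p = 0.259) and without *PV-NLS* line 5 (-0.90, adjusted p = 0.0809). With array medians subtracted both differences were -0.96, under a fold of 2. After a further quantile normalization the *PV-NES* difference was -0.98, also under that fold. *THI2.2* was added to the named genes after its values were seen.

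*BGLU28*, for a beta-glucosidase whose transcript is known to rise on sulphur starvation, was higher after MeJA than after ABA by 3.69 in *PV-NES* (adjusted p = 5.78e-08), 3.19 in *PV-NLS* (adjusted p = 4.04e-07) and 2.50 in WT (adjusted p = 0.0124). Its signals in *PV-NES* were 4.98, 3.96 and 4.02 after ACC, 4.52, 3.96 and 4.30 after ABA, 8.49, 8.24 and 7.13 after MeJA and 6.14, 5.33 and 4.68 on the controls. In WT they were 4.57 after ACC, 4.42 after ABA, 6.91 after MeJA and 5.97 and 6.37 on the controls, with an ACC difference of -1.59 (adjusted p = 0.0572). MeJA arrays stood above all others of their genotype, and in *PV-NES* 1 ACC array lay above the lowest control.

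*APS3*, described above, was also higher after MeJA than after ABA, by 1.69, 1.82 and 1.65 in *PV-NES*, *PV-NLS* and WT (adjusted p = 1.43e-07, 3.55e-08 and 0.000929). AT4G17470 read 10.24, 10.04 and 10.13 after MeJA, against 5.29, 5.70 and 6.14 on the controls of *PV-NES*, and 10.15, against 5.91 and 6.54, in WT (3.92, SE 0.30, adjusted p = 4.66e-09). Its WT fall after ACC was 1.01 (adjusted p = 0.0284), which was lost without WT control 2 (-0.69, adjusted p = 0.152). AT3G56200 differed between MeJA and ABA by 1.99, 2.00 and 2.29 in *PV-NES*, *PV-NLS* and WT (adjusted p = 3.61e-12, 2.65e-12 and 2.24e-08). In *PV-NLS* and WT the widest span was at 254828_at, which has no gene named here and was picked out after its values were seen, with MeJA above ABA by 6.76, 7.0 and 8.17 in *PV-NES*, *PV-NLS* and WT (adjusted p = 1.16e-10, 5.55e-11 and 2.15e-07).

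A further set of members was raised by ABA. *LEA4-5* encodes a late embryogenesis abundant protein, a class of hydrophilic proteins that accumulate in drying seeds and under water deficit. It read 3.79, 3.87 and 4.47 after ACC, 9.81, 9.95 and 9.96 after ABA, 4.24, 5.32 and 4.58 after MeJA and 5.32, 5.22 and 5.50 on the controls of *PV-NES*. In *PV-NLS* it read 4.21, 4.39 and 3.98 after ACC, 9.59, 9.97 and 10.12 after ABA, 5.18, 5.62 and 4.25 after MeJA and 5.80, 5.33 and 5.35 on the controls. WT read 3.72 after ACC, 9.91 after ABA, 4.48 after MeJA and 4.23 and 6.45 on the controls, and these 2 controls lay farther apart than the replicates of any transgenic group.

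*LEA4-5* rose by 4.57 after ABA in WT (SE 0.57, adjusted p = 8.94e-06), or 23.7-fold, and its ACC difference there was -1.62 (adjusted p = 0.0589). MeJA was below ABA by 5.19 in *PV-NES*, 4.87 in *PV-NLS* and 5.43 in WT (adjusted p = 2.24e-10, 6.24e-10 and 3.26e-06). AT3G51750 rose by 3.30 after ABA in WT (adjusted p = 1.48e-09), with an ACC difference of 0.13 (adjusted p = 0.772). AT1G14730 rose by 1.61 after ABA (adjusted p = 0.00106) and fell by 1.56 after ACC (adjusted p = 0.00152), and its fall of 1.21 after MeJA (adjusted p = 0.0105) was lost without WT control 2 (-0.90, adjusted p = 0.0696). The probe set 262128_at, with no gene named here and picked out after its values were seen, rose by 6.56 in WT (adjusted p = 7.2e-08), with 11.50, 11.58 and 11.60 after ABA in *PV-NES* and 5.91, 4.87 and 5.07 on its controls.

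*FACT*, *EXLA1* and *CCR2*, genes of waxes, cell walls and lignin, were among the members lower after MeJA than after ABA. The glycosyl hydrolase gene *GH9B8* did not share this direction. It read 5.55, 6.17 and 6.42 after MeJA and 5.66, 5.38 and 5.65 after ABA in *PV-NES*, and 5.98 and 5.42 in WT. *FACT*, for the acyltransferase that joins caffeate to the fatty alcohols of root waxes, read 5.24, 5.50 and 5.63 after ACC, 7.98, 7.46 and 7.93 after ABA, 5.77, 5.33 and 5.20 after MeJA and 6.96, 7.09 and 7.38 on the controls of *PV-NES*. In *PV-NLS* it read 6.13, 5.54 and 5.46 after ACC, 7.20, 7.10 and 7.82 after ABA, 6.14, 5.85 and 5.20 after MeJA and 6.93, 6.61 and 6.99 on the controls. In WT it read 6.49 after ACC, 7.19 after ABA, 5.36 after MeJA and 6.31 and 7.19 on the controls. The WT ACC array lay between the 2 WT controls. All transgenic ACC arrays lay below their controls, but these arrays chose the members, so the genotypes are not compared here.

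*FACT* differed by -0.25 after ACC in WT (SE 0.38, adjusted p = 0.726) and fell by 1.39 after MeJA (adjusted p = 0.0175), which was lost without WT control 2 (-0.95, adjusted p = 0.118). MeJA was below ABA by 2.35, 1.65 and 1.83 in *PV-NES*, *PV-NLS* and WT (adjusted p = 1.81e-07, 1.71e-05 and 0.00756). *EXLA1*, an expansin-like gene of the family that loosens cell walls, fell by 1.61 after MeJA in WT (adjusted p = 0.0192), a call lost without WT control 1 (-1.19, adjusted p = 0.166). For *EXLA1* MeJA was below ABA by 2.18, 1.88 and 1.90 in *PV-NES*, *PV-NLS* and WT (adjusted p = 6.37e-06, 2.27e-05 and 0.017).

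*CCR2*, for a cinnamoyl-CoA reductase of the lignin branch, was below ABA after MeJA by 1.38 in *PV-NES* (adjusted p = 0.002, or 0.0904 without line 11) and by 1.81 in WT (adjusted p = 0.028), with -0.91 in *PV-NLS* (adjusted p = 0.0195), under a fold of 2. Of the chitinase genes, *ChiC* of class V was below ABA after MeJA by 2.36 in *PV-NES* and 1.50 in *PV-NLS* (adjusted p = 1.5e-07 and 4.52e-05). In WT *ChiC* was below by 1.43 (adjusted p = 0.0333), a call lost without *PV-NES* line 1 or 11 or *PV-NLS* line 4 or 5 (adjusted p = 0.0502 to 0.0626). *CHI* was below ABA after MeJA by 1.97 in *PV-NES* (adjusted p = 0.000254) with -0.83 in *PV-NLS* (adjusted p = 0.0681) and -1.46 in WT (adjusted p = 0.136). AT3G01190, of the peroxidase superfamily, read 5.70, 6.05 and 6.10 after ACC, against 7.84, 7.75 and 8.15 on the controls of *PV-NES*, and 6.34, against 6.76 and 8.09, in WT (-1.09, adjusted p = 0.136). *CHI* was added to the named genes after its values were seen.

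SPIRAL1-like proteins bind microtubules of the cell cortex, and 2 of their genes were members. *SP1L2* read 5.70, 5.70 and 5.81 after ACC, 6.22, 6.26 and 5.96 after ABA, 5.56, 5.52 and 5.30 after MeJA and 6.87, 7.02 and 7.01 on the controls of *PV-NES*. In *PV-NLS* it read 5.58, 5.41 and 5.28 after ACC, 5.77, 5.53 and 5.83 after ABA, 6.26, 5.89 and 5.52 after MeJA and 7.66, 6.77 and 7.12 on the controls, and in WT 6.02 after ACC, 5.62 after ABA, 5.87 after MeJA and 6.80 and 7.46 on the controls. Every hormone array of *SP1L2* lay below every control of its genotype.

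In WT *SP1L2* fell by 1.11 after ACC (SE 0.29, adjusted p = 0.012), by 1.51 after ABA (adjusted p = 0.0012) and, after MeJA, by 1.26 (adjusted p = 0.00514). Without WT control 2 the ACC value was -0.78 (adjusted p = 0.079) and the MeJA value -0.93, under a fold of 2. *SP1L5* read 3.65 after ACC, 3.61 after ABA, 3.27 after MeJA and 3.77 and 5.42 on the controls of WT, with a fall of 1.32 after MeJA (adjusted p = 0.0232) that was lost without WT control 2 (-0.50, adjusted p = 0.230). Its WT ACC difference was -0.95 (adjusted p = 0.0976).

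AT2G28780 was low after each hormone. WT read 3.09 after ACC, 2.87 after ABA, 2.43 after MeJA and 5.25 and 4.08 on the controls, and the falls were 1.57 (adjusted p = 0.0155), 1.80 (adjusted p = 0.00719) and 2.23 (adjusted p = 0.000977). Without WT control 1 the ACC and ABA values were -0.98 (adjusted p = 0.199) and -1.21 (adjusted p = 0.0838). AT5G19240, whose WT ACC array at 9.63 stood above both controls at 9.30 and 8.88, fell to 6.25 after ABA (-2.84, adjusted p = 2.22e-05) and 7.24 after MeJA (-1.84, adjusted p = 0.002). AT1G19380 fell by 2.05 after ABA and by 1.81 after MeJA in WT (adjusted p = 0.00298 and 0.00733), beside an ACC difference of 0.71 (adjusted p = 0.299).

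**Figure D5:**
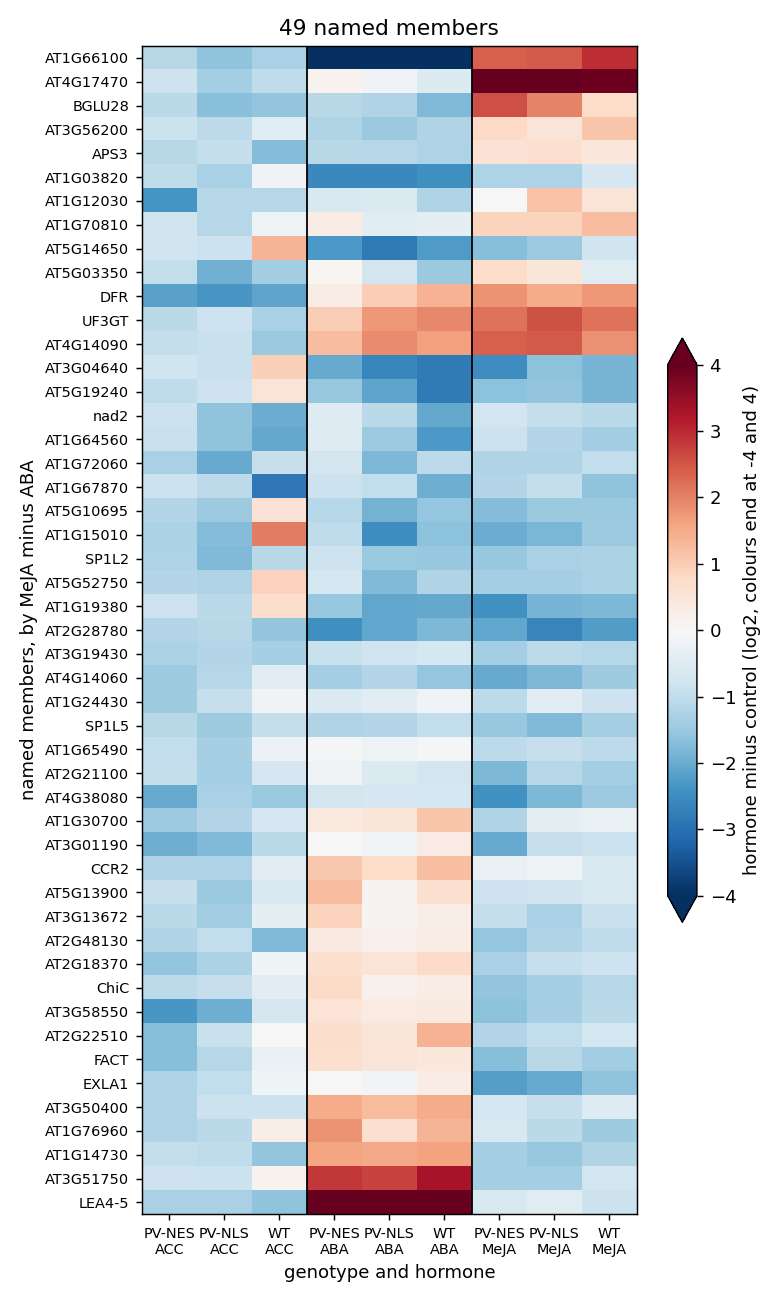
Hormone minus control (log2, colour, ending at -4 and 4) of the 49 named members (rows, by MeJA minus ABA) after ACC, ABA and MeJA in PV-NES, PV-NLS and WT (columns). ACC columns of the transgenics are negative throughout by choice, and the top and bottom rows, AT1G66100 and LEA4-5, differ most between ABA and MeJA.

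Of the ethylene pathway itself few listed genes could be looked for. Of 15 genes of perception and signalling 2 were measured by a probe set with a single gene, of 14 of biosynthesis 0 and of 11 response genes 2. None of these measured genes was a member. The other listed genes could not be found among the members, of which 59 have no gene in the annotation, so whether they belong is not known. *EIN3*, the transcription factor of the pathway, ran from 7.93 to 8.60 over all arrays and had a WT ACC difference of 0.18 (SE 0.17, limma adjusted p = 0.548). *RTE1*, which acts on the receptor ETR1, was at 0.36 (adjusted p = 0.119), the growth regulator *ARL* at 0.83 (adjusted p = 0.0201), under a fold of 2, and the defensin *PDF1.2* at 0.22 (adjusted p = 0.943).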

How the data were processed

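RNA of *A. thaliana* seedlings was hybridised to ATH1 arrays, 29 in all in 12 groups. The authors ran RMA in R (background correction, quantile normalization and a summary over probes), and deposited 1 log2 signal for each probe set and array. Their base was read from their range, 1.345 to 13.261. They were used without further normalization after 64 AFFX control probe sets were left out of 22810. Columns that belong to no sample numbered 0. Detection calls were not used, and the number of arrays limits the precision.

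Genes were named through the platform annotation and RefSeq locus tags, which give 13513 of 22746 probe sets a single gene, 503 several and 8730 none. No genome came with the files and no sequence is printed.

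Members were probe sets at -0.8 or less after ACC in both transgenic genotypes. The members and gene lists were chosen with earlier results of these data known. All groups were fitted together with limma 3.58.1 in R 4.3.3 (lmFit and eBayes, 17 residual degrees of freedom), without a block for the line. A call needed a fold above 2 and a Benjamini-Hochberg adjusted p under 0.05 over all probe sets. No p-value or call is reported for contrasts that use the transgenic control or ACC arrays. WT hormone groups of 1 array took their spread from the other groups, and p-values measure the spread between arrays. The fit was tested on simulated data in which each probe set varied equally on every array. That test therefore cannot bear on the spread assumed for groups of 1 array.

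Lines carry the same number in every treatment and so pair the arrays of a genotype by design. Deviations from the group means correlated between arrays of the same line at a median r of 0.0084 in *PV-NES* (-0.241 to 0.215) and 0.108 in *PV-NLS* (-0.132 to 0.309), against -0.025 and -0.059 for different lines.

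Named genes were, by rule, the 30 single-gene members lowest after ACC, up to 6 members higher and 6 lower in each tested comparison, and 3 probe sets on each side of the limit. The alternatives were thresholds, left-out lines and controls, the line as a block, array centring, a further quantile normalization, brighter probe sets, 1 probe set per gene, fits of the compared arrays alone and the Student's test named in the methods.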

Additional observations from a re-analysis of the deposited data

How the results depend on the processing

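A limit of -1 in place of -0.8 left 54 members and one of -0.7 gave 185, and leaving out each transgenic line gave 117 to 156. Members called lower after ACC in WT numbered 35 to 40 on leaving out 1 line or WT control, with 0 to 1 higher (1 without *PV-NES* line 7 or without WT control 2). The same ranges were 16 to 23 higher and 33 to 37 lower after ABA in WT, 18 to 24 and 19 to 29 after MeJA, and for MeJA against ABA 26 to 27 and 40 to 47 in *PV-NES*, 27 to 33 and 24 to 31 in *PV-NLS* and 24 to 25 and 19 to 26 in WT. The members' median ran from -0.99 to -0.51 after ACC, -0.46 to -0.25 after ABA and -0.86 to -0.24 after MeJA in WT. It ran from -0.30 (without *PV-NES* line 7) to -0.11 after ABA in *PV-NES*, -0.57 to -0.34 after ABA in *PV-NLS*, -0.88 to -0.73 after MeJA in *PV-NES*, and -0.83 to -0.54 after MeJA in *PV-NLS*. For MeJA minus ABA the median lay between -0.58 and -0.35 in *PV-NES*, and for *PV-NLS* between -0.15 and 0.17.

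With only the arrays compared in the fit, members called lower after ACC in WT fell to 0. After ABA 1 was then higher and 6 lower, and after MeJA 8 were higher and 1 lower. The methods' t-test called 0 members in each direction after each hormone in WT, and 6, 10 and 4 were lower after ACC, ABA and MeJA at its unadjusted threshold, a count added after seeing the data, with 3 higher after MeJA. It called 16 members lower for MeJA against ABA in *PV-NES* and 19 in *PV-NLS*. The study reports genes of WT responsive to ABA and to MeJA, so its own computation may have differed from the t-test as run here. Single calls of the genes and probe sets named here numbered 148, among them some picked out after their values were seen. With the line as a replicate block 40 members were lower after ACC in WT, and 2 of the 148 calls were lost (*ChiC* after MeJA in WT, adjusted p = 0.0539, and AT1G12030 for MeJA against ABA in WT, adjusted p = 0.0602). Of those 148 calls, 60 of 124 that could be fitted were lost with only the compared arrays and 87 of 124 by the methods' t-test. The cause was not tested. No named call changed direction under these alternatives.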
